A study of Bos taurus with 21 samples.

Results

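In the endometrium of cyclic heifers, a small set of transcripts was less abundant on day 16 than on day 13, while in pregnant heifers the same transcripts had nearly equal means on both days. These transcripts were chosen by their measured levels on the scale log2(CPM + 1), where CPM is the count scaled so that each heifer has the same total. A transcript was taken if its mean over 20 heifers was at least 5 CPM and its mean in cyclic heifers was at least 0.7 log2 units lower on day 16 than on day 13. All 5 cyclic day 16 heifers also had to lie below all 5 cyclic day 13 heifers, the pregnant day 16 mean had to lie within 0.3 of the pregnant day 13 mean, and the pregnant day 16 mean had to exceed the cyclic day 16 mean by less than 1. The rule took 15 of 28054 transcripts, or 15 of the 13646 with at least 5 CPM. Because the rule used these differences, they are given below as a description and support no claim about the 15 transcripts.

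RNA was sequenced from the endometrium, the lining of the uterus, of cross-bred beef heifers, mainly Charolais and Limousin crosses, after their cycles had been synchronised with a progesterone device and a prostaglandin analogue. The groups were 5 pregnant heifers on day 16, 5 cyclic heifers on day 16, 5 pregnant heifers on day 13 and 5 cyclic heifers on day 13. Pregnant heifers had been inseminated and carried a conceptus of the proper stage, and cyclic heifers had not been inseminated. The tissue was mostly intercaruncular endometrium, taken after flushing from the horn beside the corpus luteum, and each heifer was sampled once, so day 13 and day 16 are different animals.

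Over these days the bovine endometrium is under progesterone from the corpus luteum, and many of its genes are switched on or off as that exposure lengthens. In pregnancy the conceptus elongates and secretes interferon tau, which acts on the endometrium and keeps the corpus luteum from regressing. In a cyclic animal that signal is missing and the uterus goes on towards release of prostaglandin and a new cycle. Comparing the change between days in pregnant and in cyclic heifers asks whether a transcript follows the same course with and without a conceptus.

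The files list Ensembl transcript identifiers with no gene names, and no entry of the bovine RefSeq gene table at hand carries such an identifier. Functions, genome positions and sequences of the 15 transcripts are therefore not given, and neither cell type markers nor pathway lists could be checked. Changes in the share of a cell type and changes in RNA per cell cannot be told apart in whole tissue. Below, the transcripts are ranked from 1 to 15 by the size of the cyclic difference, and 2 are named: ENSBTAT00000052150, which had the largest cyclic difference (rank 1), and ENSBTAT00000031934, which was the most abundant (rank 10).

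Total counts ranged from 1256870 to 3764342 per heifer, so that 3 counts corresponded to 0.797 CPM in the deepest and 2.39 CPM in the shallowest heifer. Heifer 12 of the pregnant day 16 group has 2 libraries, and the rule uses library 1. Library 2 differed from library 1 by a chi-square of 6.85 per degree of freedom, which ranked 51 from the closest among 210 library pairs. From the library labelled heifer 19 it differed by 2.001, the smallest value of the 210. The next closest pair had 3.30. Values below use library 1 for heifer 12 unless library 2 is named. Below, library 2 of heifer 12 means the library with that label. Where library 2 is used, the libraries labelled heifer 12 and heifer 19 may not come from separate animals, which was not tested.

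Averaged over the 15 transcripts, the level in both pregnant groups lay between the levels of the cyclic groups. The mean log2(CPM + 1) was 4.09 ± 0.22 in pregnant day 16, 3.74 ± 0.13 in cyclic day 16, 4.24 ± 0.25 in pregnant day 13 and 4.64 ± 0.09 in cyclic day 13 heifers (SD over heifers, n = 5 each). In pregnant day 16 heifers it ranged from 3.78 to 4.32, and in cyclic day 16 heifers from 3.55 to 3.91. In pregnant day 13 heifers it ranged from 3.90 to 4.43, and in cyclic day 13 heifers from 4.53 to 4.75. No pregnant heifer on either day reached the lowest cyclic day 13 heifer, and pregnant heifers 6 and 14 lay within the range of the cyclic day 16 heifers. As a share of all counts the 15 transcripts took 0.0298% ± 0.0035 in pregnant day 16, 0.0230% ± 0.0015 in cyclic day 16, 0.0343% ± 0.0051 in pregnant day 13 and 0.0446% ± 0.0033 in cyclic day 13 heifers (SD, n = 5 each).

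**Figure D1:**
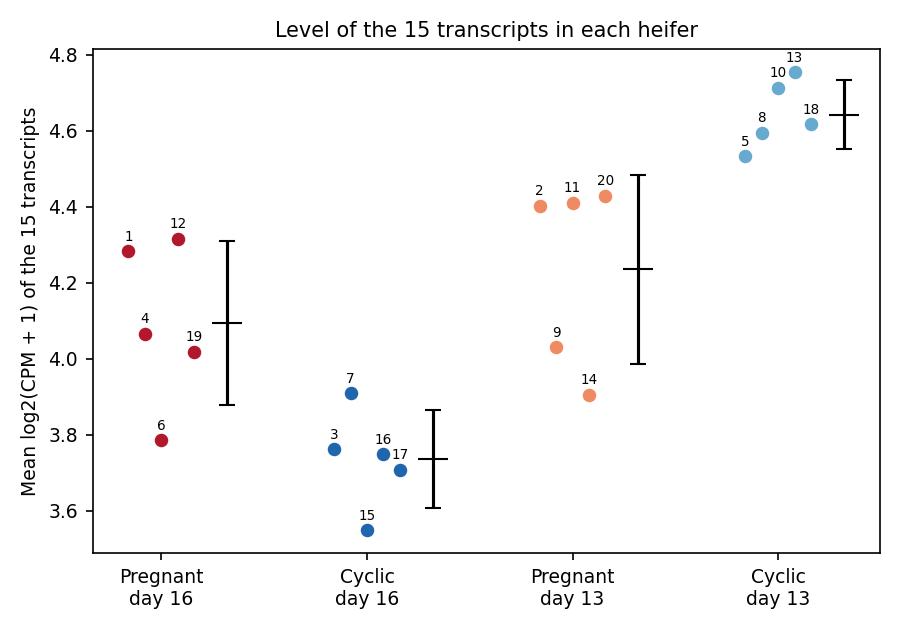
Mean log2(CPM + 1) of the 15 transcripts in each heifer (points, with heifer numbers) by group, with the group mean and SD beside them (n = 5). Both pregnant groups lie between cyclic day 16, at 3.74, and cyclic day 13, at 4.64, and the pregnant heifers spread more widely than the cyclic ones. The rule's demand of no overlap between the cyclic groups favours a narrow spread in them.

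These mean levels lay below cyclic day 13 in both pregnant groups. The rule chose transcripts with cyclic means far apart, which favours pregnant means between them. The levels therefore do not show whether the cyclic day 13 abundance was kept in pregnancy, and the positions below are a description. Placing the cyclic day 16 mean at 0% and the cyclic day 13 mean at 100%, the pregnant day 16 mean stood at a median of 41.0% over the 15 transcripts, with a range of -1.64% to 117%. The pregnant day 13 mean stood at a median of 49.6%, with a range of -9.94% to 114%. In 13 of the 15 transcripts both pregnant means lay between the cyclic means. The pregnant day 16 mean was nearer to the cyclic day 13 mean than to the cyclic day 16 mean in 4 transcripts, those of ranks 10, 12, 14 and 15. On day 13 this held in 7, those of ranks 3, 4, 9, 10, 12, 14 and 15.

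**Figure D2:**
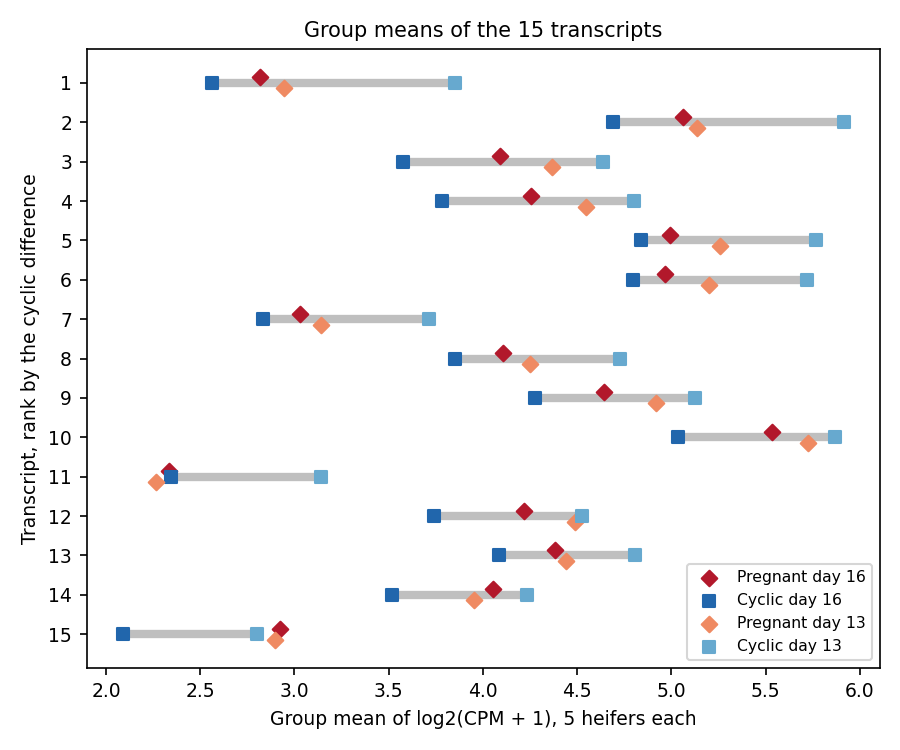
Group means of log2(CPM + 1) for each of the 15 transcripts (rows, ranked by the cyclic difference), with diamonds for pregnant and squares for cyclic heifers, 5 heifers per mean. The grey bar joins the cyclic means. In 13 rows both diamonds lie on the bar, in the row of rank 11 both lie at or beyond its cyclic day 16 end, and in the row of rank 15 both lie beyond its cyclic day 13 end.

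The differences that chose the transcripts were as follows. Day 16 minus day 13 had a median of -0.14 in pregnant heifers, from -0.29 to 0.10, and of -0.87 in cyclic heifers, from -1.29 to -0.71. Over the 13646 transcripts with at least 5 CPM these medians were -0.0003 and 0.007. All 15 had no overlap between the cyclic groups, as the rule demands, against 2.11% of the 13646 that were lower on day 16 without overlap. Pregnant minus cyclic had a median of 0.37 at day 16, from -0.01 to 0.83, and it was above 0 in 14 of 15. At day 13 the same difference had a median of -0.36, from -0.91 to 0.10, and it was below 0 in 14 of 15. Over the 13646 transcripts the median of pregnant minus cyclic was -0.03 at day 16 and -0.01 at day 13. The day 13 difference was not named in the rule, but it subtracts the cyclic day 13 levels that the rule chose as high. This favours values below 0. The rule's limits on the other differences also set an upper bound for it, so it is no independent measure.

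Single heifers show the overlap behind these means. Each pregnant group holds 75 values over the 15 transcripts and 5 heifers. Of those on day 16, 21 reached the lowest cyclic day 13 heifer, 18 lay in the gap between the cyclic groups and 36 lay at or below the highest cyclic day 16 heifer. Of those on day 13, 31 reached the lowest cyclic day 13 heifer, 20 lay in the gap and 24 lay at or below the highest cyclic day 16 heifer. Each pregnant group thus held both low and high values. The 75 values come from 5 heifers and include the near-copies of ranks 3 and 4 and of ranks 5 and 6. They are therefore not separate observations. The cyclic limits are those the rule used and no share over all transcripts was computed, so the counts are a description.

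**Figure D3:**
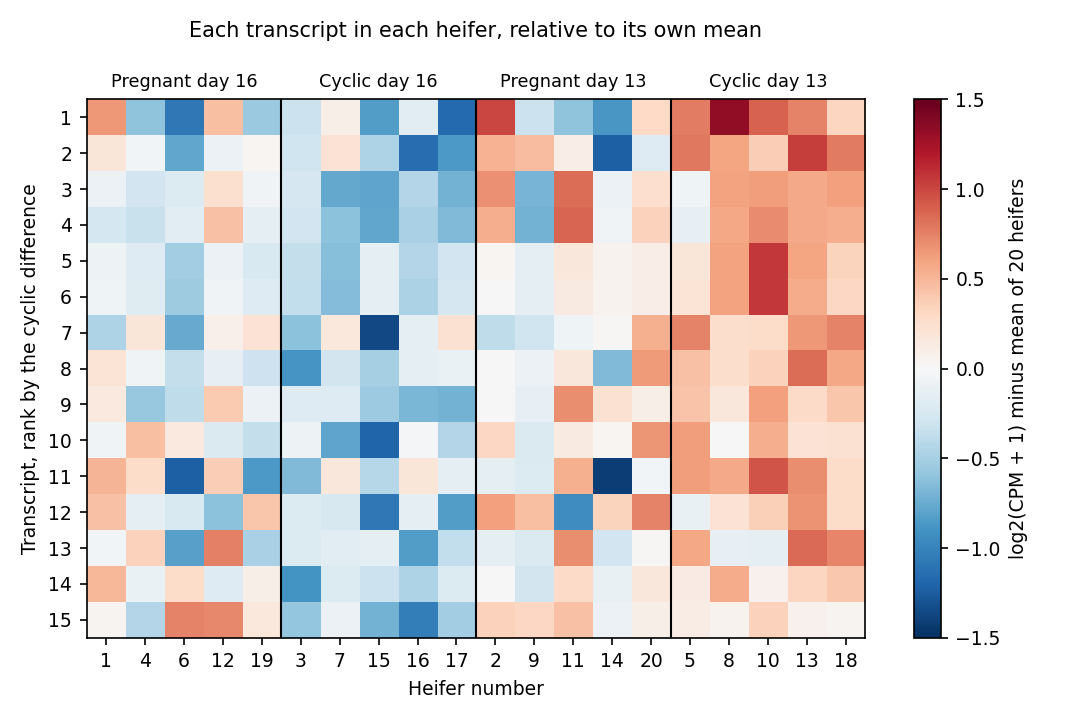
Log2(CPM + 1) of each of the 15 transcripts (rows) in each of 20 heifers (columns, grouped), relative to the transcript's mean over all heifers, with red for above and blue for below that mean. Cyclic day 16 columns are mostly blue and cyclic day 13 columns mostly red, as the rule requires, and the pregnant columns are mixed on both days.

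ENSBTAT00000052150, rank 1, was a low-abundance transcript whose pregnant levels were closer to those of cyclic day 16. It had 11.9, 4.45, 2.92, 10.3 and 4.604 CPM in pregnant day 16 heifers 1, 4, 6, 12 and 19, and 5.57, 7.74, 3.62, 6.36 and 2.68 CPM in cyclic day 16 heifers 3, 7, 15, 16 and 17. It had 15.5, 5.58, 4.45, 3.49 and 9.15 CPM in pregnant day 13 heifers 2, 9, 11, 14 and 20, and 13.0, 19.7, 14.3, 12.9 and 9.31 CPM in cyclic day 13 heifers 5, 8, 10, 13 and 18. On day 16, 2 pregnant heifers reached the cyclic day 13 range and 3 lay within or below the cyclic day 16 range. One of the 2 was heifer 12, and with its library 2, at 6.42 CPM, 1 pregnant heifer reached the cyclic day 13 range and 4 lay within or below that of cyclic day 16. The counts behind these values were 77 in pregnant day 16, 66 in cyclic day 16, 89 in pregnant day 13 and 174 in cyclic day 13 heifers, each over 5 heifers. The edgeR log2 fold change of day 16 against day 13 was -0.14 (SE 0.39) in pregnant and -1.41 (SE 0.37) in cyclic heifers. The pregnant value was not stable, at -0.39 without heifer 12, -0.34 with library 2 of that heifer and 0.22 without heifer 2, while the cyclic value stayed between -1.58 and -1.25 with any heifer left out.

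ENSBTAT00000031934, rank 10, had pregnant means relatively closer to cyclic day 13 than those of rank 1. Its pregnant day 16 mean stood at 60.1% and its pregnant day 13 mean at 82.8% of the way from cyclic day 16 to cyclic day 13. It had 43.8, 62.7, 50.7, 39.0 and 35.3 CPM in pregnant day 16 heifers 1, 4, 6, 12 and 19, and 43.3, 26.0, 19.2, 44.9 and 33.4 CPM in cyclic day 16 heifers 3, 7, 15, 16 and 17. It had 56.6, 39.1, 50.2, 46.5 and 72.4 CPM in pregnant day 13 heifers 2, 9, 11, 14 and 20, and 70.6, 45.9, 66.8, 53.3 and 53.6 CPM in cyclic day 13 heifers 5, 8, 10, 13 and 18. The pregnant groups overlapped each other and both cyclic groups, and the gap between the cyclic groups was narrow, with 44.9 CPM in the highest day 16 and 45.9 CPM in the lowest day 13 heifer. Single heifers split as for rank 1. On day 16, 2 pregnant heifers reached the cyclic day 13 range and 3 lay within or below the cyclic day 16 range. The edgeR log2 fold change of day 16 against day 13 was -0.17 (SE 0.21) in pregnant and -0.80 (SE 0.21) in cyclic heifers. With a heifer left out the pregnant value lay between -0.31, without heifer 4, and -0.04, without heifer 20, and the cyclic value between -0.93 and -0.66.

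**Figure D4:**
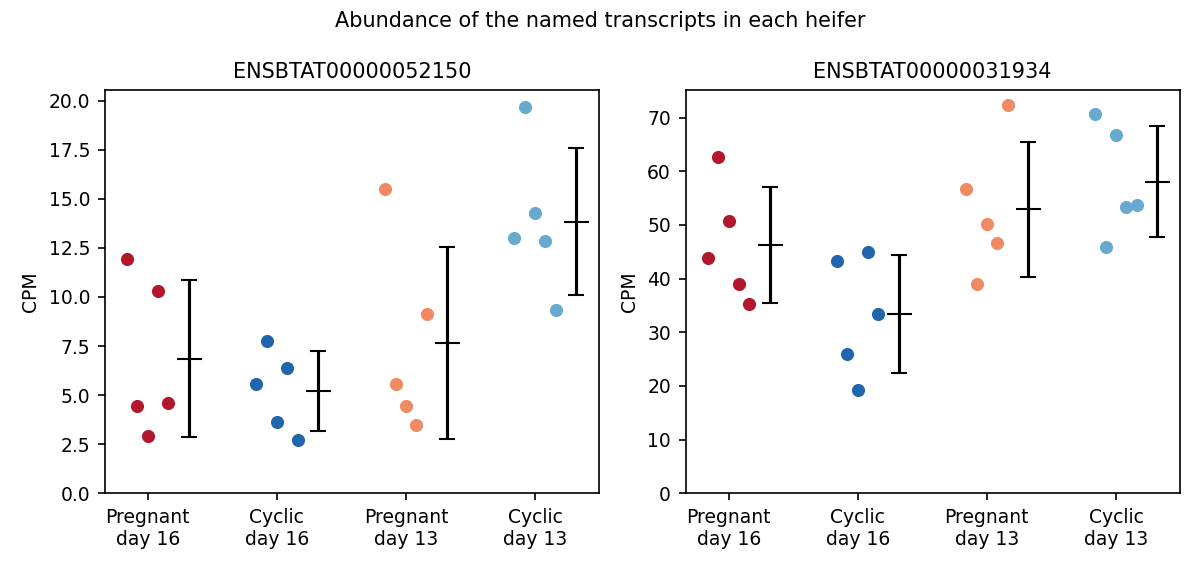
CPM of the named transcripts in each heifer (points) with the group mean and SD beside them (n = 5). For ENSBTAT00000052150 the pregnant heifers spread from 2.92 to 11.9 CPM on day 16 and from 3.49 to 15.5 CPM on day 13, and for ENSBTAT00000031934 the pregnant groups overlap each other and both cyclic groups, which do not overlap.

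The transcripts of ranks 14 and 15 had the highest relative levels in pregnant day 16 heifers. Rank 14 had 20.7, 13.3, 17.5, 12.4 and 15.3 CPM in pregnant day 16 heifers 1, 4, 6, 12 and 19, and 7.21, 12.3, 11.2, 10.2 and 12.3 CPM in cyclic day 16 heifers 3, 7, 15, 16 and 17. On day 13 it averaged 14.6 ± 2.42 CPM in pregnant and 17.97 ± 2.67 CPM in cyclic heifers (SD, n = 5 each). It was 1 of the 15 in which all pregnant day 16 heifers lay above all cyclic day 16 heifers, against 1.49% of the 13646 transcripts, but this rested on heifer 12. That heifer had 12.42 CPM in library 1 and 12.13 CPM in library 2, against 12.29 CPM in the highest cyclic day 16 heifer, so with library 2 none of the 15 was without overlap. Rank 15 averaged 6.95 ± 2.64 CPM in pregnant day 16, 3.35 ± 1.06 CPM in cyclic day 16, 6.52 ± 1.07 CPM in pregnant day 13 and 5.99 ± 0.659 CPM in cyclic day 13 heifers (SD, n = 5 each). It was the 1 transcript of the 15 in which both pregnant means exceeded the cyclic day 13 mean. With library 2 of heifer 12, at 4.28 CPM in place of 9.58 CPM, the pregnant day 16 mean was 5.89 ± 2.37 CPM (SD, n = 5) and no longer did so. Rank 15 had 84, 43, 84 and 77 counts in these groups.

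The transcripts of ranks 2, 5, 6, 7 and 8 had all 5 pregnant day 16 heifers below all 5 cyclic day 13 heifers. The rule chose transcripts that were high in cyclic day 13, which favours this. The share over all transcripts was not computed, so nothing is read from the count. Rank 2 had 40.6, 34.9, 20.5, 33.7 and 36.5 CPM in pregnant day 16 heifers 1, 4, 6, 12 and 19, and 28.9, 41.9, 25.7, 15.7 and 19.2 CPM in cyclic day 16 heifers 3, 7, 15, 16 and 17. On day 13 it averaged 37.2 ± 15.1 CPM in pregnant and 60.03 ± 10.5 CPM in cyclic heifers (SD, n = 5 each). Rank 7 averaged 7.45 ± 2.33 CPM in pregnant day 16, 6.67 ± 2.95 CPM in cyclic day 16, 8.05 ± 2.42 CPM in pregnant day 13 and 12.3 ± 2.20 CPM in cyclic day 13 heifers (SD, n = 5 each). In the transcripts of ranks 2 and 7 no pregnant day 16 heifer exceeded the highest cyclic day 16 heifer. Rank 11 was alike in 3 groups, with 4.62 ± 2.62 CPM in pregnant day 16, 4.22 ± 1.29 CPM in cyclic day 16 and 4.24 ± 2.17 CPM in pregnant day 13 heifers, against 7.93 ± 1.46 CPM in cyclic day 13 heifers (SD, n = 5 each).

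Rank 5 had 34.2, 31.5, 24.9, 34.1 and 30.7 CPM in pregnant day 16 heifers 1, 4, 6, 12 and 19, and 27.9, 22.8, 32.6, 26.3 and 29.5 CPM in cyclic day 16 heifers 3, 7, 15, 16 and 17. It had 37.0, 32.7, 40.9, 37.6 and 38.7 CPM in pregnant day 13 heifers 2, 9, 11, 14 and 20, and 41.0, 55.3, 76.4, 54.8 and 45.8 CPM in cyclic day 13 heifers 5, 8, 10, 13 and 18. Cyclic day 13 stood above the other 3 groups, and pregnant and cyclic day 16 heifers overlapped. Ranks 5 and 6 were the only ones of the 15 in which all pregnant day 13 heifers lay below all cyclic day 13 heifers, against 0.322% of the 13646 transcripts. They are not separate observations, since their counts varied together across heifers with a correlation of 0.996 within groups and a ratio of 1.01 to 1.06. The same holds for ranks 3 and 4, with a correlation of 0.968 and a count ratio of 0.76 to 1.00. How reads were shared between transcripts is not stated in the labels or files, so each pair may rest on the same reads, and counting each pair once leaves 13 transcripts. The remaining transcripts, of ranks 3, 4, 8, 9, 12 and 13, averaged 16.151 to 24.7 CPM in pregnant day 16, 11.1 to 18.6 CPM in cyclic day 16, 18.8 to 29.9 CPM in pregnant day 13 and 22.4 to 34.1 CPM in cyclic day 13 heifers, each over 5 heifers.

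Apart from these pairs most transcripts varied together weakly. Some followed the mean of the other 14 more closely than others did, a measure that is not comparable with the pair values. Over 20 heifers, the correlation of deviations from group means had a median of 0.129 over the other 103 pairs, with 0.678 as the highest and 71 above 0, against a median of 0.003 over all pairs of transcripts with at least 5 CPM. The correlation of a transcript with the mean of the other 14 had a median of 0.356, from -0.075 at rank 12 to 0.677 at rank 11. It was over 0.4 in 6 transcripts, those of ranks 1, 3, 4, 8, 9 and 11, of which ranks 3 and 4 are near-copies of each other. With library 2 of heifer 12 the median was 0.261, and 5 transcripts were over 0.4, without rank 9. For ranks 3, 4, 5 and 6 the mean of the other 14 held their near-copy, and no such value was taken over all transcripts. These points share libraries, depth and scaling, and the correlations are given as a description. Pregnant day 16 heifer 6 was the lowest of its group in 8 of the 15 transcripts and heifer 1 the highest in 7. Pregnant day 13 heifer 11 was the highest of its group in 9, while heifers 9 and 14 were the lowest in 7 and 6. The SD of log2(CPM + 1) had a median over the 15 of 0.37 in pregnant day 16, 0.32 in cyclic day 16, 0.40 in pregnant day 13 and 0.25 in cyclic day 13 heifers. Over all 13646 transcripts it was 0.27, 0.25, 0.31 and 0.27 in these groups. The rule's demand of no overlap favours a narrow spread in the cyclic groups, so the SDs of the 15 are a description. The 15 had a median abundance of 19.2 CPM, from 5.25 to 47.7, against 34.0 CPM over all 13646.

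The different behaviour of pregnant and cyclic heifers was not established for any of the 15 transcripts. The change between days in pregnant heifers minus that in cyclic heifers had a median edgeR log2 value of 0.78 over the 15, from 0.47 to 1.27, with a median SE of 0.34. None of the 15 passed the edgeR quasi-likelihood test of this difference with Benjamini-Hochberg adjustment over 14826 transcripts (threshold 0.05), where 0.472% of all transcripts passed with a positive difference. DESeq2 and limma voom also called 0 of the 15, against 0.755% and 0.459% of all transcripts. An unadjusted p under 0.05 was reached by 12 of the 15 in edgeR, against 5.54% of all transcripts. That count depended on single libraries, at 6 without pregnant day 16 heifer 12, 7 with the run letter of the file names in the fit, and 8 with library 2 of heifer 12 or without any one of heifers 9, 14 and 17. Over all transcripts the count of 821 became 695 without heifer 12, 834 with the run letter and 747 with library 2. Without heifers 9, 14 and 17 it was 626, 641 and 773. The counts among the 15 come from differences that chose the transcripts, so nothing is read from them. A test that misses the threshold does not show that pregnant and cyclic heifers changed alike.

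In the separate comparisons, 8 of the 15 passed as lower on day 16 than on day 13 in cyclic heifers, those of ranks 2, 3, 4, 5, 6, 8, 9 and 14, against 1.24% of all transcripts in edgeR. The rule used this contrast. It also held the pregnant difference between days within 0.3, which favours no calls there. Pregnant against cyclic heifers uses the same chosen cyclic values, so nothing is read from the counts in this paragraph. ENSBTAT00000052150 and ENSBTAT00000031934 were not among the 8. None passed between days in pregnant heifers, where 2.11% of all transcripts passed as lower, and 0 reached an unadjusted p under 0.05 in edgeR, against 9.03% of all transcripts; with a heifer left out this was 0 to 2, the 2 arising without heifer 9, and with library 2 of heifer 12 it was 1. DESeq2 and limma voom called 0 of the 15 here too, against 2.76% and 1.81%. None passed as higher in pregnant than in cyclic heifers at day 16, against 0.931% of all transcripts, and 6 had an unadjusted p under 0.05 in edgeR, against 4.07%. Without cyclic heifer 15 or with the run letter in the fit these 6 became 2, without cyclic heifer 17 they became 3, and without heifer 7 or 12 they became 4. Over all transcripts the count of 603 became 498, 592, 619, 596 and 624 in these fits, in that order. DESeq2 and limma voom called 0 of the 15 as higher, against 1.2% and 0.965%. None passed as lower in pregnant than in cyclic heifers at day 13, where 0% of all transcripts passed in edgeR, and 7 had an unadjusted p under 0.05, against 2.83%. These 7 became 3 without pregnant heifer 14 and 4 without pregnant heifer 9, where the count of 420 over all transcripts became 180 and 286. DESeq2 called 0 of the 15, against 0.0135% of all transcripts, and limma voom called 0, against 0%.

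A larger set met the cyclic part of the rule, and in most of it the pregnant heifers differed between days as well. Of 119 such transcripts, 95 were lower by more than 0.3 on day 16 in pregnant heifers, 15 lay within 0.3 and 9 were higher by more than 0.3. The median difference of the 119 was -0.98 in pregnant and -1.17 in cyclic heifers. The limit on pregnant minus cyclic at day 16 removed 0 transcripts. Of the 15, 6 lay between -0.3 and -0.2 in pregnant heifers, and 4 lay within 0.1 of no difference. Just inside the limit the lowest was -0.294 and just outside it the nearest was -0.312. For the cyclic limit these values were -0.711 and -0.699, and for the abundance limit 5.25 and 4.87 CPM. In the other 104 transcripts the median of pregnant minus cyclic was 0.10 at day 16 and -0.02 at day 13.

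**Figure D5:**
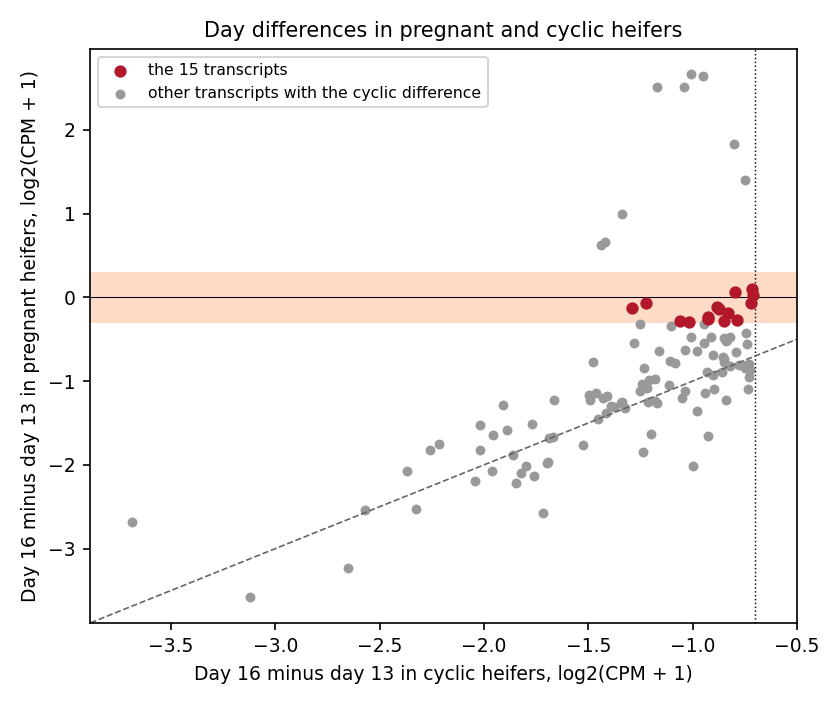
Day 16 minus day 13 of mean log2(CPM + 1) in pregnant heifers (vertical) and cyclic heifers (horizontal) for the 119 transcripts that met the cyclic part of the rule, with the 15 in red. The shaded band marks the limits of 0.3, the dotted line the cyclic limit and the dashed line equal differences, and the 15 lie at the upper edge of a cloud of 95 transcripts that were lower in both.

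The groups were spread unevenly over the run numbers in the deposited file names, here lettered A to D. Cyclic day 16 heifers came from runs A, C and D (1, 3 and 1 heifers) and cyclic day 13 heifers from runs A, B and C (1, 3 and 1). Within run A the mean over the 15 transcripts was 0.14 higher on day 16 than on day 13 in pregnant heifers (2 and 2), against -1.17 in cyclic heifers (1 and 1). Within run C it was -0.11 in pregnant heifers (2 and 1) and -0.86 in cyclic heifers (3 and 1), and within run B it was -0.40 in pregnant heifers (1 and 2), with no cyclic day 16 heifer. With the run letter as a term in the edgeR fit, 3 of the 15 passed in cyclic heifers, in place of 8. Over all 14826 transcripts tested, 97 passed as lower, in place of 184. The size of the cyclic difference was nearly the same in both fits, with a median log2 fold change over the 15 of -0.92 in each, and the error was larger, with an SE at rank 1 of 0.47 with the run letter and 0.37 without it. Pregnant minus cyclic at day 16 was 0.75 in run A (2 and 1) and 0.19 in run C (2 and 3), and at day 13 it was -0.56 in run A (2 and 1), -0.22 in run B (2 and 3) and -0.56 in run C (1 and 1).

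Library 2 labelled heifer 12 took no part in the choice of the transcripts. Its mean log2(CPM + 1) over the 15 was 4.05, against 4.32 in library 1 and 4.02 in heifer 19. With library 2 in place of library 1 the pregnant day 16 group averaged 4.04 ± 0.18 (SD, n = 5), in place of 4.09 ± 0.22, and still lay between the cyclic groups. The median position of its means fell to 30.8%, in place of 41.0%, with a range of -11.4% to 89.1%, and the same 4 transcripts were nearer to cyclic day 13. Of its 75 values, 17 reached the lowest cyclic day 13 heifer, 16 lay in the gap and 42 lay at or below the highest cyclic day 16 heifer. These 75 values come from 5 libraries and are not separate observations. Pregnant minus cyclic at day 16 then had a median of 0.27, in place of 0.37, and a median edgeR log2 fold change of 0.29, in place of 0.43. Rank 9 joined those with all pregnant day 16 heifers below all cyclic day 13 heifers, a count that again has no share over all transcripts beside it. In pregnant heifers day 16 minus day 13 had a median of -0.18, with -0.41 as the lowest, which is outside the rule's limit. With library 2 in place of library 1 the rule took 13 transcripts, 11 of them among the 15, and with both libraries summed it took 14, of which 13 were among the 15.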

How the data were processed

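The deposited files hold raw read counts per Ensembl transcript, 1 file per library, for 28054 identifiers and 21 libraries. The submitters' processing notes name CASAVA alone, and the aligner, counter, annotation and genome build were not given in the sources used here. CPM was each count scaled by the file total. Groups came from the sample titles, and heifer 12 was represented by library 1.

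For tests, transcripts were kept by filterByExpr of edgeR (version 4.0.16, R 4.3.3; minimum count 10, minimum total 15), which left 14826 and all 15 chosen transcripts. TMM scaling and a robust quasi-likelihood fit of 4 group means to 20 heifers were used, with Benjamini-Hochberg adjustment over all transcripts tested. The SE of a fold change was its size over the square root of F. The fits and the rule were tested on simulated data. DESeq2 (version 1.42.0) and limma voom (version 3.58.1) were alternatives, with other scalings, pseudocounts, filters, library choices and each heifer left out.

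The transcripts were chosen with earlier results of these data known. Named identifiers are the one with the largest cyclic difference and the most abundant one; others were described by rank. Prepared gene lists were not tested, since no identifier had a symbol. Counting floors cover counting error only, because amplified reads without molecular tags can be copies of 1 molecule. P-values measure the spread between heifers.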

Additional observations from a re-analysis of the deposited data

Results flagged for a closer look

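Among the 15 transcripts and their mean level, 64 sets of 5 heifers were searched for a heifer far from the rest of its group, and 5 turned up. Chance alone flags about 1 in 20 such sets. Rank 4 had 26.6 CPM in pregnant day 16 heifer 12, against 15.2 to 17.5 CPM in the other 4, and library 2 labelled heifer 12 had 22.1 CPM. Rank 13 had 34.0 CPM in pregnant day 13 heifer 11, against 16.68 to 20.8 CPM. In cyclic day 13 heifer 5, ranks 3 and 4 had 16.171 and 17.7 CPM, against 25.7 to 26.8 and 28.7 to 32.1 CPM in the others, and these transcripts nearly share their counts. Rank 15 had 7.14 CPM in cyclic day 13 heifer 10, against 5.59 to 5.92 CPM. Heifer 5 was thus the lowest cyclic day 13 heifer for ranks 3 and 4 while still above every cyclic day 16 heifer.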

How the results depend on the processing

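The number of transcripts the rule took depended on single cyclic heifers. It ranged from 10 to 52 with each heifer left out in turn, against 15, with 10 without pregnant day 13 heifer 14, 52 without cyclic day 13 heifer 5, 34 without cyclic day 13 heifer 10, and 29 and 26 without cyclic day 16 heifers 7 and 17. Leaving out a cyclic heifer also makes the demand of no overlap easier to meet. Of the 15, between 10 and 15 were taken each time, and rank 6 was the only one taken in all 20. Without a minimum CPM the rule took 23, and TMM scaling gave 18, of which 14 were among the 15. Transcripts lower on day 16 in cyclic heifers numbered 184 over all transcripts, 287 in DESeq2, 97 with the run letter in the fit and 105 to 238 with each heifer left out, with 105, 118 and 114 without cyclic heifers 3, 17 and 8. Of the 15, 3 passed with the run letter and 6 to 9 with a heifer left out. In DESeq2 and in limma voom 10 passed, and limma voom called 149 over all transcripts. Without the count filter, with heifer 12 summed and with its library 2 alone, 10 passed too, against 178, 202 and 209 over all transcripts. Those lower between days in pregnant heifers numbered 313, or 203 to 337 with a heifer left out, the lowest without pregnant day 16 heifer 6. DESeq2 called 2 transcripts as lower in pregnancy at day 13 and 112 for the difference of the day changes, against 0 and 70 in edgeR. For pregnant against cyclic at day 16, 0 to 1 of the 15 passed with a heifer left out, the 1 arising without pregnant heifer 4 and without cyclic heifer 7. None of the 15 passed for the difference of the day changes with any of the 20 heifers left out or under the other 6 alternatives. The mean day 16 minus day 13 over the 15 stayed between -0.22 and -0.06 in pregnant and between -0.95 and -0.85 in cyclic heifers. No paired analysis was possible because no heifer number is shared between groups. Depth limits the rarer transcripts, whose groups hold as few as 43 counts.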
